A study of Mus musculus with 6 samples.

Results

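The C-type lectin genes are those whose name on the array begins with Clec or Cd209. This rule took 42 probes of 30 genes, out of 28478 gene names on 41174 probes that are not controls, and 9 of the 30 genes had several probes. The rule used names only and no measured value. The arrays came from the left kidney behind a tied ureter (ligated) and the untied right kidney (contralateral) of 3 mice of the outbred CD-1 stock, numbered 485, 495 and 512, with 1 array per kidney. This obstruction is used to bring on renal fibrosis, and the untied kidney serves as the animal's internal control. No transgene, deletion or drug is named for either kidney, and the age of the mice, their sex and the time from ligation to sampling are not given in the sources used here. The labels call the material kidney in one field and primary cells in another. The contralateral kidney is not a healthy kidney of an unoperated mouse, since it stays in the animal whose other ureter was tied.

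C-type lectins carry a fold that in many members binds sugars in a calcium-dependent way. Myeloid cells use surface members to sense fungal and bacterial glycans and products of dying cells: activating members signal through the kinase Syk, either from a motif of their own or through the adaptors FcRγ (Fcer1g) and DAP12 (Tyrobp), while inhibitory members recruit phosphatases through a motif called ITIM. Members of the Cd209 group take up glycoproteins, the Clec2 group are ligands that natural killer cell receptors of the NKR-P1 group recognise, and Clec1b is the platelet receptor of podoplanin.

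Signal was read with designed 60-base oligonucleotides, so the sequences that define the measurements are those of the probes, shown here for the largest rise among genes detected on all 6 arrays (Clec7a), for the only fall (both probes of Clec2h) and for the 3 probes of Clec4a2, which did not report the same level. Positions are those that the files give on build mm8, and the sequences are as deposited, 5′ to 3′. The part of the transcript in which each probe lies was not annotated here. The Clec7a probe lies at chr6:129427414-129427473, the Clec2h probes at chr6:128642126-128642185 and chr6:128641479-128641538, and the Clec4a2 probes at chr6:123106277-123106336, chr6:123093630-123104886 and chr6:123109221-123109280.
Clec7a, A_51_P246653: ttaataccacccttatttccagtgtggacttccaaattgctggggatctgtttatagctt
Clec2h, A_52_P320193: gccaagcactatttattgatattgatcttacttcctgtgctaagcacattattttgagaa
Clec2h, A_51_P231072: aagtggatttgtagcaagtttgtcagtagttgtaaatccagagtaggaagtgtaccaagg
Clec4a2, A_52_P353698: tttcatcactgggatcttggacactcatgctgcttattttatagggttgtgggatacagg
Clec4a2, A_51_P444092: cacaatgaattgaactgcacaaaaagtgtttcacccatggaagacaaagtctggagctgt
Clec4a2, A_52_P356106: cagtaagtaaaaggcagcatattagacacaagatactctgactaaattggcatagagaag
None of the 42 probes shared a run of 20 or more bases with a probe of another gene on the array (0 probes). The search covered exact runs only. It missed a long stretch over which the brighter Clec2g probe and the Clec2i probe differ only at scattered letters.

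The promoters of 26 of the 30 genes matched by symbol in the RefSeq promoter table (build GRCm38.p6, 250 bases before to 50 after the start site), 29 windows in all. Those of Clec7a, Clec4d and Clec2h are shown because the first 2 genes rose and the last fell. Capitals mark 2 motifs searched on both strands: GAGGAA, a purine-rich core of the kind that the myeloid factor PU.1 binds, and TGANTCA, the element of AP-1. No match of one motif overlapped a match of the other in these 3 windows. The Clec7a window spans chr6:129472730-129473029 on the minus strand, the Clec4d window chr6:123261857-123262156 on the plus strand and the Clec2h window chr6:128662135-128662434 on the plus strand.
Clec7a: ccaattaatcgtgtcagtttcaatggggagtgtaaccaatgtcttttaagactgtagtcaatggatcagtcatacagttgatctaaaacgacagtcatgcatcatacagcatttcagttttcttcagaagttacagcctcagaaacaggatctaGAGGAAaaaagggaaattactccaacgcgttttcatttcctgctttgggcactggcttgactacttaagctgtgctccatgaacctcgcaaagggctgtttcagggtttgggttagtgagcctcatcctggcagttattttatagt
Clec4d: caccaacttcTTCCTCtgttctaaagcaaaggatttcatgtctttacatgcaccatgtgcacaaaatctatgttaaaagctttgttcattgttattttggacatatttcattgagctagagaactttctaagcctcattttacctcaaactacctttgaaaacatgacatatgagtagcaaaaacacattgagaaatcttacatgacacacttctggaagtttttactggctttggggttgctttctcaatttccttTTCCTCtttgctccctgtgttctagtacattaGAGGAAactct
Clec2h: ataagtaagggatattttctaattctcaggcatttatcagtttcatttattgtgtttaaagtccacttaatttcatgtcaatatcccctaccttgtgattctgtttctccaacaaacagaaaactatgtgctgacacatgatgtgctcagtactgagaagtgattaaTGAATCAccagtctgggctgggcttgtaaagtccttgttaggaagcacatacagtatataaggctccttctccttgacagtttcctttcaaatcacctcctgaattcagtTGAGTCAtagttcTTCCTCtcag
GAGGAA stood in the windows of 8 of the 16 genes that were higher in ligated kidneys and have a window, and of 4 of the 10 other genes with a window, against 28.3% of all 32851 windows in the table. TGANTCA stood in 2 of those 16 and in 4 of the other 10, against 7.81% of all windows. A gene with 2 windows counted once if either held the motif. The matches describe letters in a window and say nothing of binding.

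The 75th percentile of the processed signal lay between 1068 and 1433 on the ligated arrays and between 671.2 and 1105 on the contralateral arrays, and 71.6% to 74.2% of probes on ligated arrays and 65.3% to 69% on contralateral arrays were above background. Of the 42 C-type lectin probes, 27, 27 and 30 were above background in the ligated kidneys of mice 485, 495 and 512, against 20, 19 and 24 in their contralateral kidneys. The contralateral kidney of mouse 512 stood apart from the other contralateral kidneys. Its summed signal of 6 proximal tubule markers was 125100 units, against 721100 and 622100 in mice 485 and 495, and its summed signal of 12 macrophage markers was 55460 units, against 18900 and 19800. Lyz2 alone made up most of these macrophage sums, at 38120 units, against 11350 and 11990. Of the 12 markers, 10 were above both other contralateral kidneys and 2 were below both. These 2 were Csf1r (1884, against 2510 and 2254) and Mertk (433, against 2006 and 1503). Signals are given in units in which the 75th percentile of each array is 1000, always for mice 485, 495 and 512 in that order. A unit value compares kidneys for a probe, not genes with each other, because probes differ in how strongly they bind.

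Most C-type lectin genes with signal were higher in the ligated kidney, and 1 was lower. The tested members grouped by hand as endothelial and platelet or as secreted did not pass the test. A gene was tested where every array of the ligated group, or every array of the contralateral group, had a probe of it above background, which held for 24 of the 30 genes, and was called at an adjusted p under 0.05 in limma's paired fit over 19598 genes. Of the 24 genes, 17 were called higher, where 16% of all tested genes were, and 1 was called lower, where 14.7% of all tested genes were. However, 8 of the 24 passed the filter through the ligated arrays alone, which favours genes that are brighter there. Among the 16 genes above background on all 6 arrays, 10 were called higher and 1 lower, against 14.1% and 19.3% of the 17353 genes held to the same filter. The median log2 fold change (ligated minus contralateral) of these 16 genes was 1.47, that of the 24 genes was 2.43, or 1.49 with those 8 genes set at their lower bounds, and that of all tested genes was -0.01. Normexp correction, an alternative background step, added an offset of 50 to each signal before scaling. Under normexp correction several called changes were smaller on the log2 scale, at 2.57 for Clec4n, 2.65 for Clec4a3, 1.83 for Clec5a, 1.20 for Clec4d and 0.77 for Clec2i, and these 5 genes were still called. In bulk RNA, more cells of a type and more RNA per cell cannot be told apart.

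All 3 ligated kidneys lay above all 3 contralateral kidneys for 19 of the 24 genes, as for 24.7% of all tested genes, and below them for 1 gene, as for 28.8% of all tested genes. For the other 4 genes the groups overlapped. The 24 include the 8 genes that passed the filter through the ligated arrays alone, which favours ligated values above. Among the 16 genes above background on all 6 arrays, the ligated kidneys lay above for 12 and below for 1, and the groups overlapped for 3. The 24.7% and 28.8% are shares of all 19598 tested genes. The shares among all genes held to the filter on all 6 arrays were not counted, so these 16 have no like baseline here. Without mouse 495, or without mouse 485, no C-type lectin gene was called (0 of 24, with 20 genes at an unadjusted p under 0.05 in limma each time), nor was any other gene on the array. Without mouse 512, all 18 called genes were called again and Cd209b was added. In an unpaired fit that left out only the contralateral kidney of mouse 512, chosen after seeing the data, 17 of the 18 genes were called again and Clec4e was not.

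**Figure D1:**
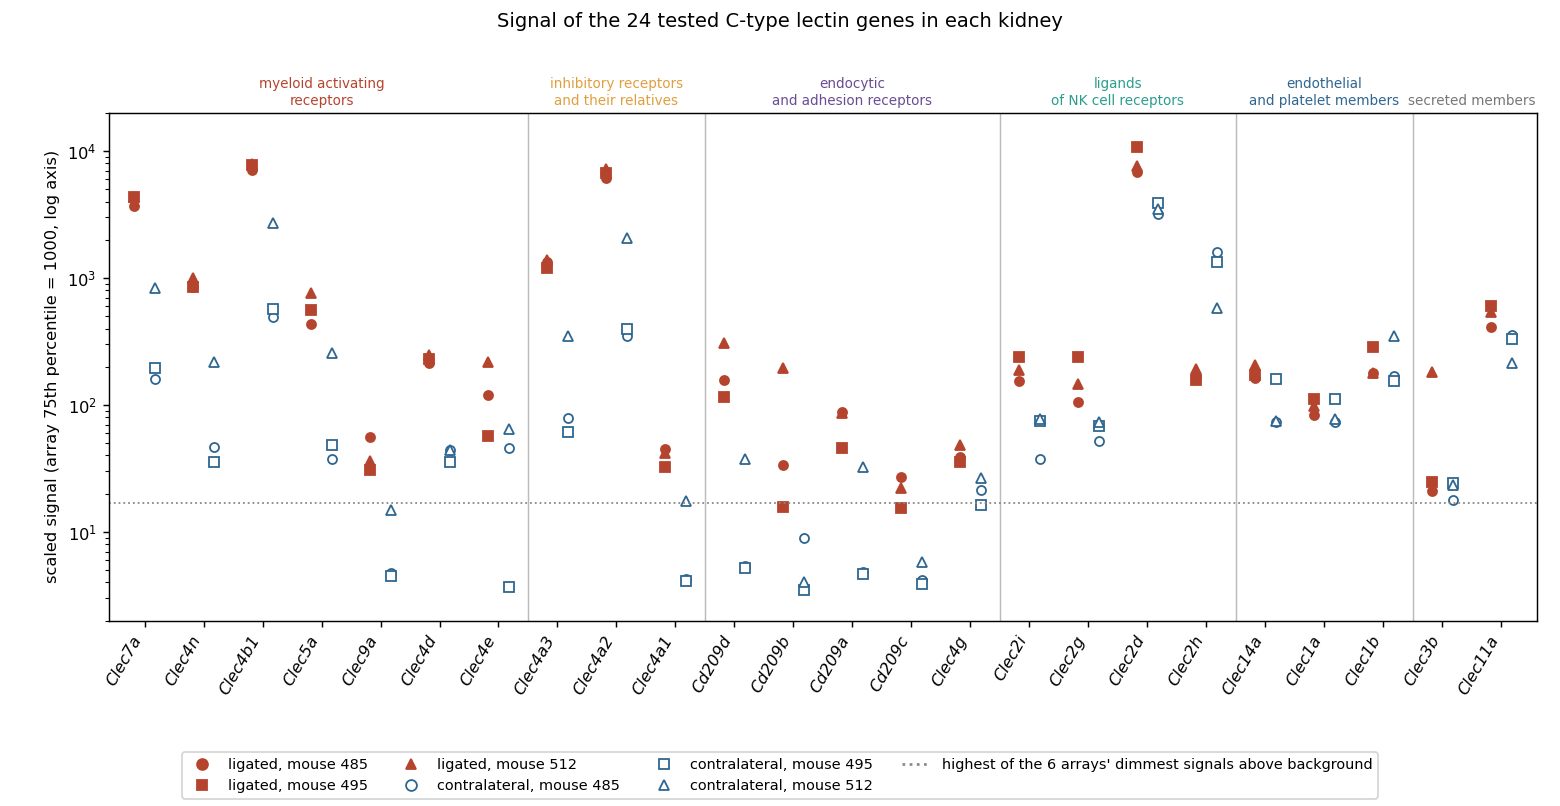
Scaled signal (log axis, the 75th percentile of each array set to 1000) of the 24 tested C-type lectin genes, with ligated kidneys as filled red symbols left of contralateral kidneys as open blue symbols, a symbol shape for each mouse, and the genes ordered by role. Clec7a lay between 3717 and 4331 in the ligated kidneys and between 161 and 842 in the contralateral kidneys, and Clec2h is the only gene whose ligated symbols all lie below its contralateral ones.

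**Figure D2:**
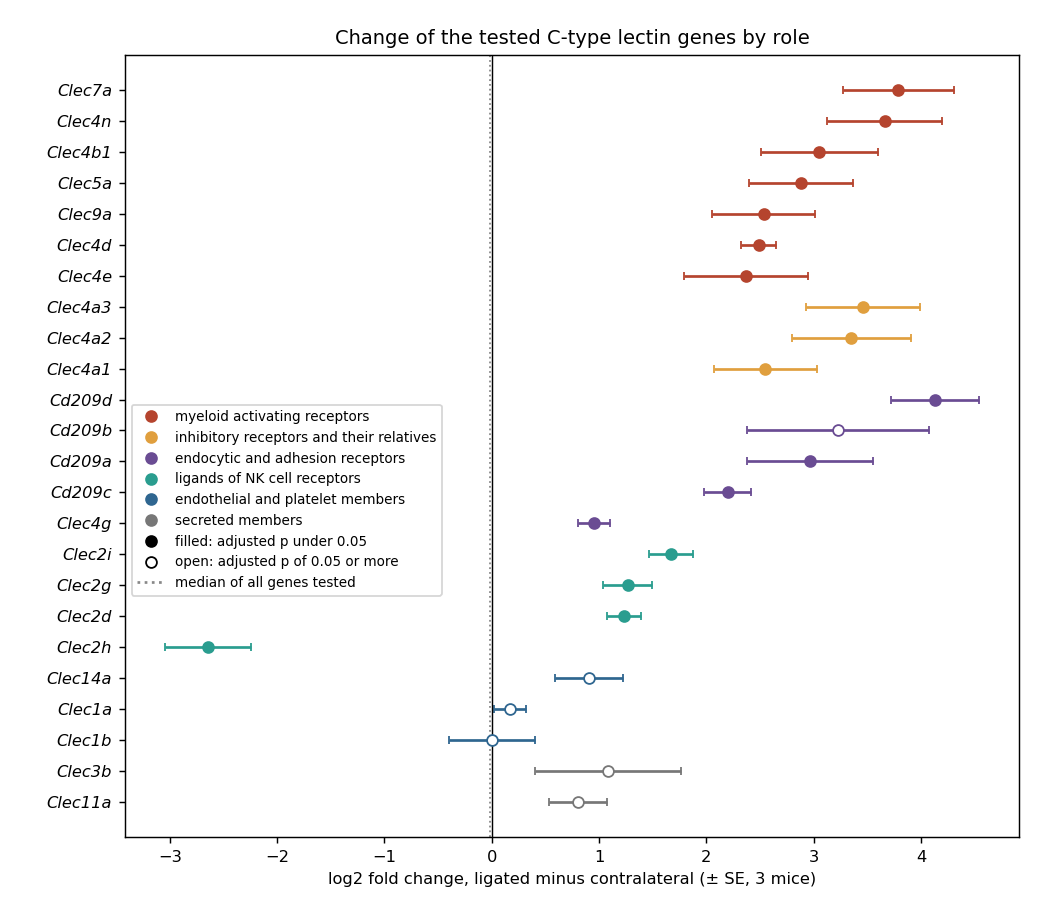
Log2 fold change (ligated minus contralateral, points) with its SE from limma's paired fit over 3 mice (bars) for the same genes, coloured by role, filled where the adjusted p was under 0.05. All 7 myeloid activating receptors have filled points right of 0, Clec2h stands alone at -2.64, and the 3 endothelial and platelet members and the 2 secreted members have open points.

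All 7 myeloid activating receptors were tested, and all 7 rose. Clec7a, which encodes Dectin-1, the receptor of fungal β-glucan that carries its own Syk-binding motif, had 3717, 4331 and 4316 units in ligated kidneys, against 161, 194 and 842 units in contralateral kidneys. Every ligated kidney was far above every contralateral one, and mouse 512 had the highest contralateral value. The log2 fold change was 3.79 ± 0.52 (SE, n = 3 pairs), a 13.8-fold difference, with an adjusted p of 0.0261 in limma's paired fit.

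Clec4n encodes Dectin-2, a receptor of mannose-rich glycans that signals through FcRγ. It had 852, 854 and 1002 units in ligated kidneys, against 46.2, 35.8 and 218 units in contralateral kidneys, without overlap. Its log2 fold change was 3.66 ± 0.54, with an adjusted p of 0.0275 in limma's fit. Clec4b1 encodes the mouse receptor DCAR, another partner of FcRγ. It had 7092, 7776 and 7930 units in ligated kidneys, against 493, 573 and 2721 units in contralateral kidneys. The ligated kidneys differed little from each other (SD of 0.09 on the log2 scale) while the contralateral kidneys were spread (SD of 1.36, n = 3 each), and the log2 fold change was 3.05 ± 0.55.

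Clec5a, which encodes MDL-1, a receptor that pairs with DAP12, had 436, 562 and 756 units in ligated kidneys, against 37.4, 48.1 and 258 units in contralateral kidneys. The groups did not overlap, and the log2 fold change was 2.88 ± 0.49. Clec4d and Clec4e encode MCL and Mincle, a pair of receptors that sense mycobacterial glycolipid, and Mincle also senses a protein released by dead cells. Clec4d had 214, 232 and 246 units in ligated kidneys, against 44.0, 35.5 and 44.3 units in contralateral kidneys. Both groups were tight, mouse 512 included, and the log2 fold change of 2.49 ± 0.16 had the smallest SE of these 7 genes. Clec4e had 119, 57.0 and 219 units in ligated kidneys, against 45.7, 3.68 and 64.4 units in contralateral kidneys. Here the groups overlapped: the ligated kidney of mouse 495 was lower than the contralateral kidney of mouse 512, although each ligated kidney was above its own pair. Because the contralateral value of mouse 495 was not above background, the rise was at least 3.18-fold (fitted log2 fold change of 2.37 ± 0.58, adjusted p of 0.0485 in limma), and the call was lost in the fit without the pairing, with slide as the block, under quantile normalization, under normexp correction and with no filter on dim probes.

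Clec9a encodes DNGR-1, with which a class of dendritic cells detects the actin of dead cells. It had 55.9, 30.6 and 36.2 units in ligated kidneys, against 4.79, 4.52 and 14.8 units in contralateral kidneys, none of which was above background. The rise was at least 2.51-fold, with an adjusted p of 0.0343 in limma, and the call was lost under normexp correction and with no filter on dim probes.

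Of the inhibitory receptors and their close relatives, 3 of 4 genes were tested and all 3 rose. Clec4a2 encodes DCIR, whose tail carries an ITIM, and had 6146, 6666 and 7263 units in ligated kidneys, against 346, 393 and 2060 units in contralateral kidneys. The log2 fold change was 3.35 ± 0.55, a 10.2-fold difference, with an adjusted p of 0.0304 in limma. Clec4a3, a relative of DCIR, had 1335, 1202 and 1385 units in ligated kidneys, against 78.9, 61.1 and 346 units in contralateral kidneys, a log2 fold change of 3.46 ± 0.53.

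Clec4a1, another relative, had 44.8, 32.6 and 41.8 units in ligated kidneys, against 4.25, 4.07 and 17.6 units in contralateral kidneys, of which only that of mouse 512 was above background. The rise was at least 2.36-fold, and the call was lost under quantile normalization, under normexp correction and with no filter. Thus the activating receptors and Clec4a2, whose product carries an ITIM, were higher in the same kidneys.

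Of the 8 endocytic and adhesion receptors, 5 were tested, all 5 passed the filter through the ligated arrays alone, and 4 rose. Cd209d, which encodes SIGNR3, a mouse relative of the dendritic cell lectin DC-SIGN, had 156, 116 and 309 units in ligated kidneys, against 5.43, 5.20 and 37.2 units in contralateral kidneys. Only the contralateral kidney of mouse 512 was above background, and it stayed below every ligated kidney. The rise was at least 8.28-fold, with a fitted log2 fold change of 4.13 ± 0.41 and an adjusted p of 0.0220 in limma.

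Cd209a encodes the mouse protein named DC-SIGN and had 88.0, 45.5 and 86.2 units in ligated kidneys, against 4.84, 4.64 and 32.2 units in contralateral kidneys. Again only mouse 512 had a contralateral value above background, and the rise was at least 3.43-fold. Cd209c, which encodes SIGNR2, had 27.0, 15.3 and 22.2 units in ligated kidneys, against 4.18, 3.90 and 5.82 units in contralateral kidneys, all 3 of them not above background. The rise was at least 1.39-fold (fitted log2 fold change of 2.20 ± 0.22). Clec4g, which encodes LSECtin, a lectin known from liver sinusoidal endothelium, had 39.0, 35.5 and 48.7 units in ligated kidneys, against 21.3, 16.3 and 26.8 units in contralateral kidneys. The fitted rise was 1.94-fold (log2 fold change of 0.95 ± 0.15). It is an estimate and not a minimum, since the undetected contralateral value stood for itself. These dim genes depended on the background step. Under normexp correction Cd209d stood at 1.35 on the log2 scale, less than the bound above, and was called; Cd209a stood at 0.35, Cd209c at -0.10 and Clec4g at -0.074, and none of these 3 was called. The calls of Cd209a and Clec4g were also lost with no filter on dim probes, and that of Clec4g under quantile normalization and spike-in centring.

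Cd209b encodes SIGNR1, a receptor known from marginal zone and peritoneal macrophages. It did not pass the test (fitted log2 fold change of 3.23 ± 0.85, adjusted p of 0.0546 in limma), although each ligated value of its brighter probe was higher than each contralateral one. That probe had 33.9, 15.7 and 197 units in ligated kidneys, against 8.99, 3.51 and 4.06 units in contralateral kidneys, so that the ligated kidney of mouse 512 was well above the others. The second probe, A_52_P267717, was above background only in the ligated kidney of mouse 512. It had 2.475, 4.37 and 19.1 units in ligated kidneys, against 3.54, 3.30 and 2.67 units in contralateral kidneys, and its groups overlapped.

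The ligands of natural killer cell receptors moved in opposite directions: of 5 genes, 4 were tested, 3 rose and 1 fell. Clec2d encodes Clr-b, the ligand of the inhibitory receptor NKR-P1B, and had 6860, 10720 and 7648 units in ligated kidneys, against 3218, 3872 and 3496 units in contralateral kidneys. It was above background in every kidney, and its log2 fold change of 1.23 ± 0.16 (2.35-fold) had an adjusted p of 0.0248 in limma. Clec2i, which encodes Clr-g, a ligand of NKR-P1F, had 155, 239 and 189.8 units in ligated kidneys, against 37.7, 74.9 and 77.3 units in contralateral kidneys, a log2 fold change of 1.67 ± 0.20. Clec2g, a close relative, had 104.7, 237 and 145 units in ligated kidneys, against 52.0, 68.3 and 72.9 units in contralateral kidneys. The groups did not overlap, the log2 fold change was 1.27 ± 0.23, and the call was lost under quantile normalization, under normexp correction and with no filter. Over a long stretch this Clec2g probe is nearly alike in sequence to the Clec2i probe. The other Clec2g probe was not above background on any array. Whether the rises of Clec2g and Clec2i are separate was not tested.

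Clec2h encodes Clr-f, a ligand of NKR-P1G known from gut epithelium. It had 165, 158 and 193 units in ligated kidneys, against 1589, 1330 and 578 units in contralateral kidneys. The ligated kidneys were alike, and the lowest contralateral value was that of mouse 512. Expression was 6.24-fold lower in ligated kidneys (log2 fold change of -2.64 ± 0.40, adjusted p of 0.0281 in limma), and the second probe, at 77.3, 66.2 and 94.2 units in ligated kidneys and 821, 640 and 267 units in contralateral kidneys, gave -2.73 ± 0.45 on the log2 scale in a fit at probe level. In the same kidneys 5 of the 6 proximal tubule markers also fell (median log2 fold change of -2.41), and their part in the fall of Clec2h was not tested.

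None of the 3 endothelial and platelet members passed the test. Clec14a, an endothelial lectin that binds multimerin-2, had 164, 172 and 205 units in ligated kidneys, against 73.3, 159 and 75.03 units in contralateral kidneys. All ligated values were higher, the closest pair being that of mouse 495, and the log2 fold change of 0.91 ± 0.32 had an adjusted p of 0.0925 in limma. Clec1a, found on endothelium and dendritic cells, had 83.5, 112 and 97.6 units in ligated kidneys, against 73.4, 112 and 77.8 units in contralateral kidneys, with a log2 fold change of 0.17 ± 0.15. Clec1b, which encodes CLEC-2, had 178, 286 and 179 units in ligated kidneys, against 169.5, 154 and 347 units in contralateral kidneys. Its differences ran in opposite directions in mice 495 and 512, and the log2 fold change was 0.00 ± 0.40 (adjusted p of 0.996 in limma).

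Of the 3 secreted members, 2 were tested and neither passed. Clec11a, which encodes a growth factor of bone known as osteolectin, had 409.6, 599.8 and 539 units in ligated kidneys, against 354, 329 and 214 units in contralateral kidneys. The groups did not overlap, but the log2 fold change of 0.80 ± 0.27 had an adjusted p of 0.0842 in limma. Clec3b, which encodes the plasminogen-binding protein tetranectin, had 21.2, 24.6 and 182 units in ligated kidneys, against 17.7, 24.3 and 23.3 units in contralateral kidneys. Only the ligated kidney of mouse 512 stood out, and the log2 fold change of 1.08 ± 0.68 had an adjusted p of 0.260 in limma.

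The 6 genes that were not tested were Cd209e, Cd209f, Clec12a, Clec2e, Clec3a and Clec4f. For 5 of them no probe was above background on any array. Cd209f was the exception: its brighter probe, A_51_P196663, had 5.14, 7.89 and 590.5 units in ligated kidneys, against 11.0, 23.0 and 9.24 units in contralateral kidneys, and its second probe had 2.98, 4.57 and 51.4 units in ligated kidneys, against 3.80, 5.13 and 2.90 units in contralateral kidneys. The ligated kidney of mouse 512 was thus high for Cd209f with both probes, as it was for Cd209b and Clec3b. The summed signal of 4 B cell markers was also highest there, at 6707 units, against 1421 and 1928 units in the ligated kidneys of mice 485 and 495 and 334 to 748 units in the contralateral kidneys. The summed signal of 9 T and NK cell markers, at 3949 units against 2158 and 2171 units in the other ligated kidneys, and that of 4 lymphatic markers, at 388 units against 200.1 and 205 units, were highest there too. Of the T and NK cell markers, Klrb1c alone was lowest there among the ligated kidneys, at 41.96 units against 55.65 and 75.32. The lymphatic markers were split. Lyve1 (149 units, against 16.6 and 18.3) and Pdpn (154, against 67.6 and 68.4) were highest there. Prox1 (45.7, against 64.9 and 67.2) and Flt4 (39.7, against 50.9 and 50.7) were the lowest of the ligated kidneys. The part of these cells in the 3 values was not tested.

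Many of the members that rose lay side by side in the genome. By the mm8 positions of their probes, and joining neighbours up to 1 Mb apart, 24 of the 30 genes fell in 3 groups. The first, at chr6:122893629-123248538, held Clec4a1, Clec4a3, Clec4b1, Clec4a2, Clec4n, Clec4d and Clec4e, and all 7 rose, with a median log2 fold change of 3.05. The second, at chr6:128641479-129427473, held 10 genes, of which 8 were tested, 5 rose and 1 fell (median 1.25): Clec2h lies at its start and Clec7a at its end. The third, at chr8:3707219-4102958, held Clec4g and the Cd209 genes, of which 5 of 7 were tested and 4 rose. All 5 tested genes of the third group passed the filter through the ligated arrays alone. So did Clec4a1 and Clec4e of the first and Clec9a of the second. Over all tested genes 16% were called higher and 14.7% lower. Neighbouring genes are related in sequence, and these counts are a description without a test.

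Many members were high in the contralateral kidney of mouse 512. For 17 of the 24 genes (70.8%) that kidney was above the other 2 contralateral kidneys, as it was for 39.6% of all tested genes. It was above them for 10 of the 16 genes above background on all 6 arrays (62.5%). The share among all genes held to that filter was not counted. The excess was 4.76-fold over the mean of the other 2 for Clec7a, 5.36-fold for Clec4n, 5.58-fold for Clec4a2 and 6.08-fold for Clec5a, all of them above background on every array. It was 1.12-fold for Clec4d, a neighbour of Clec4n, and 0.990-fold for Clec2d. In mice 485, 495 and 512 Clec7a was 23.0-fold, 22.3-fold and 5.13-fold higher in the ligated kidney, while Clec4d was 4.86-fold, 6.52-fold and 5.55-fold higher and Clec2d 2.13-fold, 2.77-fold and 2.19-fold higher. Over the 16 genes the within-mouse log2 difference had a median of 1.60 for mouse 485, 1.73 for mouse 495 and 1.50 for mouse 512, and over the 24 genes, 8 of them dim on contralateral arrays, it was 2.16, 2.43 and 1.50. The change was smallest in mouse 512 for 62.5% of the 24 genes, as for 62.7% of all tested genes. The summed signal of 8 dendritic cell markers in the contralateral kidney of mouse 512, at 5525 units, was likewise above the 2151 and 2322 units of mice 485 and 495, and the part of these cells was not tested. Mouse 512 was on a slide of its own, so slide and mouse cannot be told apart for it.

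**Figure D3:**
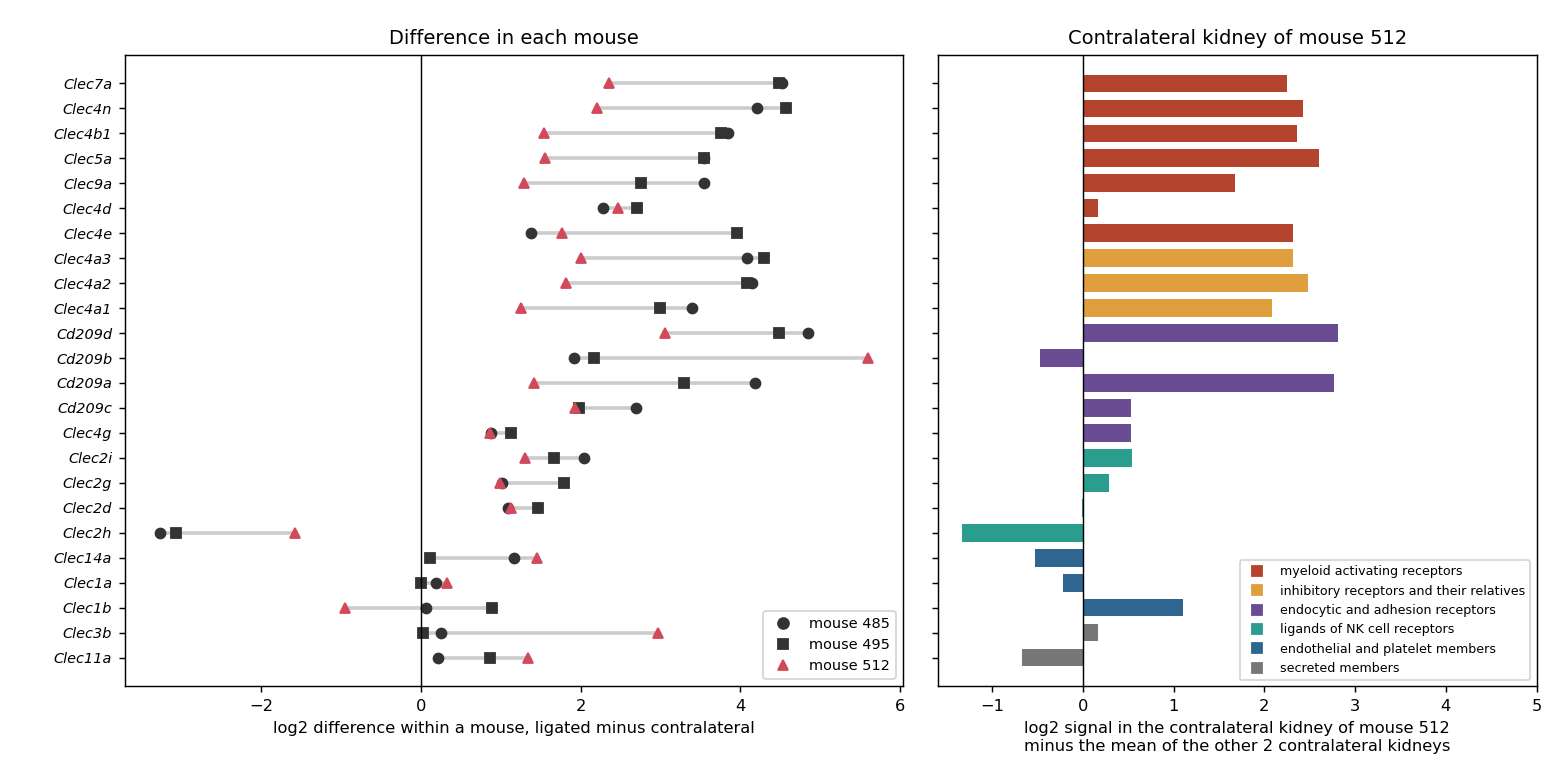
Left, the log2 difference between the ligated and the contralateral kidney of each mouse (mouse 512 in red) for the 24 tested genes; right, the log2 signal of the contralateral kidney of mouse 512 minus the mean of the other 2 contralateral kidneys, coloured by role. Clec5a and Clec7a have long bars on the right and a red triangle far left of the black symbols, Clec4e has a long bar with its triangle between the black symbols, and Clec4d and Clec2d have short bars and symbols close together.

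Where more than 1 probe of a gene passed the filter, the probes differed in brightness and changed in the same direction. Of the 9 genes with several probes, Clec2h, Clec4a2 and Clec5a had more than 1 probe that passed the filter. The second Clec4a2 probe, A_51_P444092, had 796, 826 and 900 units in ligated kidneys, against 49.8, 36.4 and 257 units in contralateral kidneys, a log2 fold change of 3.44 ± 0.59 at probe level, close to that of the brightest probe. The third, A_52_P356106, was not above background on any array (2.13 to 3.40 units in ligated kidneys and 3.06 to 4.23 units in contralateral kidneys). For Clec5a, A_51_P398376 gave 2.32 ± 0.46 with 1 contralateral array above background, and A_52_P142888 was not above background on any array. The second probe of Clec14a, that of Clec2g and the other probes of Clec4g were also not above background anywhere. Signals at that level are no measure of the gene.

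**Figure D4:**
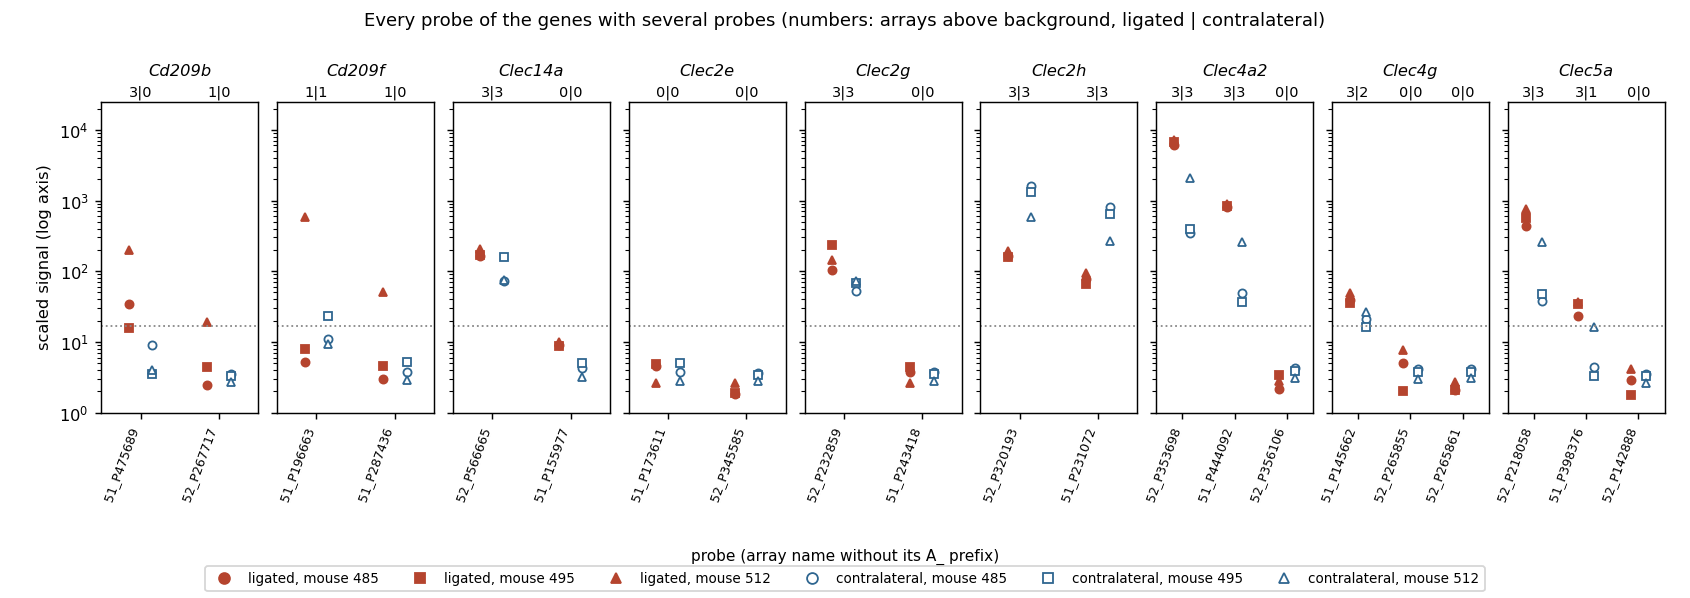
Scaled signal (log axis) of every probe of the 9 genes with several probes, ligated kidneys filled and left, contralateral kidneys open and right; the numbers above each probe give the ligated and the contralateral arrays on which it was above background. The first 2 probes of Clec4a2 separate the groups in the same way at different levels, the third lies under the dotted line (the highest of the 6 arrays' dimmest signals above background), and Cd209f is high only in the ligated kidney of mouse 512.

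Mgl1, the array's name for the gene now called Clec10a, a macrophage lectin of galactose-type sugars, lies outside the rule. It had 8562, 6323 and 11130 units in ligated kidneys, against 430.1, 482 and 3708 units in contralateral kidneys, and it rose by 3.20 ± 0.60 on the log2 scale (adjusted p of 0.0334 in limma). The gene now called Clec16a had a log2 fold change of -0.51 ± 0.14 and was not called, nor was the gene now called Clec18a (2.81 ± 1.29), whose groups overlapped. Among 37 genes of the same fold under other names, such as mannose receptors, selectins, collectins and NK receptors, 28 were tested, 21 rose and 2 fell, with a median log2 fold change of 2.07. Among those with the largest fitted changes were Mrc1, the macrophage mannose receptor (3.61 ± 0.58), Mgl2, a second galactose-type lectin of macrophages (3.37 ± 0.53), and Sftpd, surfactant protein D, which was not above background on 1 contralateral array and rose at least 6.94-fold, so its place is not set. The 2 genes that fell were Mbl1, a circulating mannose-binding lectin (-1.86 ± 0.32), and Cd302 (-0.99 ± 0.19), both named after their values were seen.

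Of 27 genes of C-type lectin signalling, 23 were tested, 12 rose and 0 fell at an adjusted p under 0.05 in limma, and the median log2 fold change was 1.40. Among those with the largest fitted changes were Syk (3.00 ± 0.26), the exchange factor Vav1 (2.90 ± 0.41) and the cytokine Tnf, which was not above background on 1 contralateral array and rose at least 7.20-fold, so its place among them is not set. The adaptors that activating members use also rose, by 2.90 ± 0.41 for Tyrobp and 2.70 ± 0.37 for Fcer1g. The next steps differed: Malt1 had 0.34 ± 0.15, Bcl10 0.21 ± 0.15 and Prkcd 0.27 ± 0.14, none of which passed the test. Of the phosphatases on the list, Inpp5d rose by 2.50 ± 0.36 and Ptpn6 by 0.70 ± 0.16, while Ptpn11 had -0.07 ± 0.15 and did not pass.

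Of 13 ligands and partners of the members, 11 were tested, 6 rose and 0 fell, with a median log2 fold change of 1.40. Klrb1b, the NKR-P1B receptor of the Clec2d product, rose at least 7.04-fold, Klrb1a, a related receptor, rose at least 5.97-fold, and Lgals9, a galectin reported to bind Dectin-1, rose by 2.19 ± 0.22 on the log2 scale. Pdpn, podoplanin, the ligand of CLEC-2, rose by 1.40 ± 0.23, while Clec1b itself did not pass. Mmrn2, the partner of Clec14a, had 0.61 ± 0.19 and did not pass.

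Markers of the cells that carry these lectins moved in the same comparison. These counts stand against the 16% of all tested genes called higher and 14.7% called lower. Of 12 tested macrophage markers 11 rose, and their summed signal was 213500 to 250700 units in ligated kidneys, against 18900 to 55460 units in contralateral kidneys. Lyz2 made up most of these sums, at 155200 to 178000 units in ligated kidneys and 11350 to 38120 units in contralateral kidneys. Of 8 dendritic cell markers 7 rose (14250 to 18720 units, against 2151 to 5525 units), of 9 T and NK cell markers 4 rose (2158 to 3949 units, against 626 to 688 units), of 4 B cell markers 1 rose, and of 6 neutrophil markers 2 rose, with overlapping sums. Of 6 platelet markers 1 rose, a share like that of all genes. Of 8 blood endothelial markers 5 rose (18830 to 22660 units, against 11350 to 15720 units) and of 4 lymphatic markers 3 rose, while all 6 fibroblast markers rose. Of 6 proximal tubule markers 5 fell and of 7 other epithelial markers 4 fell. The part of these cell types in the changes of the lectin genes was not tested, and the arrays hold no measure of cell number.

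**Figure D5:**
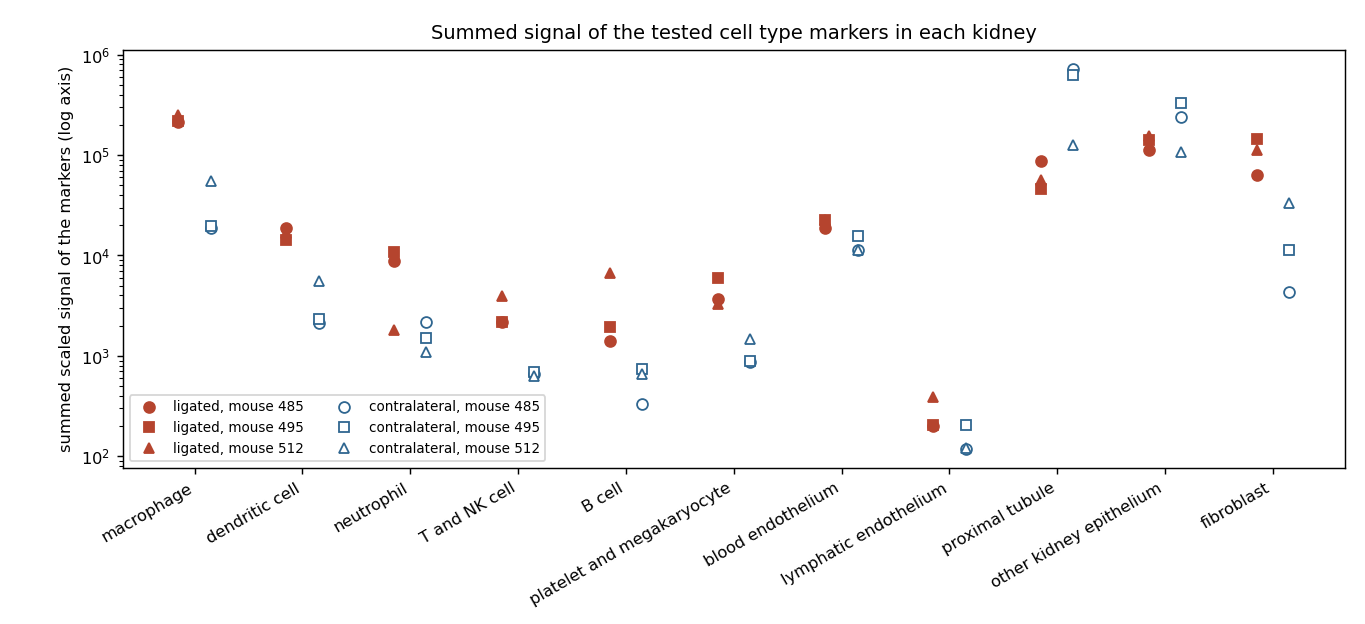
Summed scaled signal (log axis) of the tested markers of each cell type, ligated kidneys filled and left, contralateral kidneys open and right, a symbol shape for each mouse. The macrophage sums are 213500 to 250700 units in ligated kidneys and 18900 to 55460 units in contralateral kidneys, and the proximal tubule sum of the contralateral kidney of mouse 512 (125100 units) lies nearer to the ligated kidneys than to the other contralateral kidneys.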

How the data were processed

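Total RNA of both kidneys of 3 mice was labelled with Cy3 and measured on 6 one-colour Agilent arrays (design 014868), 1 per kidney. The authors deposited scanner tables whose processed signal is a linear intensity, background-subtracted within each array and not scaled between arrays, per the file headers. Agilent Feature Extraction made them, in version 10.5.1.1 per the file headers and in version 9.1 per the submitters' processing notes. Detection flags are other values, of 0 or 1, per the file headers. The authors' deposited value table holds a linear ratio, which equalled the processed signal over the array's median, and it served as an alternative. Probe positions are on mm8, per the file headers.

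Outlier-flagged spots (43 to 79 per array) were removed, and 0 spots were saturated. On the log2 scale the 75th percentile of each array was subtracted, and spots of a probe were averaged. Detection of a probe needed the flag in at least 0.5 of its spots. Probes detected throughout the ligated or throughout the contralateral group entered the tests, each gene through its brightest probe. The two-sided test was limma's (version 3.58.1, R 4.3.3) over 19598 genes, with the mouse as a block and Benjamini-Hochberg adjustment. It rests on 2 residual degrees of freedom plus 2.06 from eBayes. The pairing is that of the mouse numbers. Deviations from the group means correlated between the kidneys of a mouse across genes, which are not independent, with r = 0.481 for mouse 485, 0.194 for mouse 495 and 0.271 for mouse 512. The fit was tested on simulated data. The number of arrays limits the precision.

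A fold written "at least" is a lower bound, used where the dimmer group had arrays without detection: on such arrays the probe's own value, or the dimmest detected value if that is higher, stood for the probe. Members took their names from the array and other genes through RefSeq accessions (24375 of 41174 probes matched). Of the 42 member probes 36 matched, all under the same symbol. The members, lists and settings were chosen with earlier results of these data known. Every member is accounted for by name, with values in every array for those called and for those above background on all 6 arrays. Of each companion list the 3 called genes with the largest change are named, and other genes were named after their values were seen. Role groups were assigned by hand. Alternatives varied the block, scaling, background correction, filter, probe rule, prior and mice.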

Additional observations from a re-analysis of the deposited data

How the results depend on the processing

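The value table, centring on the median and the mean of a gene's probes kept all 18 calls. Fewer C-type lectin genes were called higher under normexp correction (10), with no filter on dim probes (11) and with the filter on all 6 arrays (10), against 17. Their median log2 fold change was then 0.56, 1.47 and 1.47, against 2.43. The all-6 filter tests only 16 of the genes. Quantile normalization called 13 higher. Under normexp correction Cd209c (-0.10) and Clec4g (-0.074) changed sign and were not called. The offset of 50 in that correction was the same on every array, while the 75th percentile of the processed signal ran from 671.2 to 1433. The part of the offset in these values was not tested. Without the replicate block, that is unpaired, 16 rose and 1 fell, Clec4e being lost. With slide as the block 17 rose, Cd209b replacing Clec4e. Leaving out a mouse gave between 0 and 18 rises, 0 and 1 falls, and medians between 2.08 and 2.41. Of all genes, 3137 rose and 2882 fell. Rises numbered 1992 under normexp correction, 1773 with no filter, 5168 unpaired without the contralateral kidney of mouse 512, and 0 to 5368 without a mouse. Falls numbered 5941 when centred on the median, 653 on spike-in spots, 910 with no filter, 5874 without that kidney, and 0 to 5658 without a mouse. Without mouse 495 or 485, 4950 and 4948 genes had an unadjusted p under 0.05 in limma. Centring on the median moved the median of all genes to -0.32, spike-in centring to 0.31 and normexp to -0.18. Genes at or near background, such as the Cd209 group, limit what the arrays can measure.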
